A study of Rattus norvegicus with 30 samples.

Results

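The genes followed here were 10 members of the CXC chemokine family and its receptors: the ligands Cxcl1, Cxcl2, Cxcl9, Cxcl10, Cxcl11, Cxcl12, Cxcl13 and Cxcl16 and the receptors Cxcr3 and Cxcr4. They were chosen by symbol, as the probes that carry one of these gene names in the scanner files. The rule found 11 probes of 60 bases among 41012 on the array, for 9 of the 10 genes. Cxcl12 and Cxcr4 had 2 probes each, 7 genes had 1, and Cxcl16 was not analysed here. All 11 probes were bright enough to be tested in both tissues. Where a gene had 2 probes, the one with the higher mean signal is given as probe 1 and stands for the gene in every count.

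CXC chemokines are small secreted proteins that direct the movement of white blood cells through G protein-coupled receptors. Cxcl1 and Cxcl2 bind Cxcr2 and draw neutrophils into injured tissue. Cxcl9, Cxcl10 and Cxcl11 are induced by interferons and bind Cxcr3, a receptor of activated T cells and natural killer (NK) cells. Cxcl13 is the ligand of Cxcr5 and organises B cell follicles, while Cxcl12 is made by stromal cells at rest and binds Cxcr4, a receptor carried by many white blood cells as well as neurons and glia. An injured peripheral nerve is entered by neutrophils first and by macrophages and lymphocytes later, and these ligands and receptors are among the molecules that guide such traffic.

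The samples came from adult male Sprague-Dawley rats, in groups of 6, in which 1 cm of the left sciatic nerve had been cut out at mid-thigh. Proximal sciatic nerve (SN, pieces of 0.5 cm) and lumbar dorsal root ganglia (DRG, which hold the cell bodies of the sensory axons in that nerve) were taken at 0, 1, 4, 7 and 14 d. The 0 d samples served as the control of each tissue, and the labels name no genotype, drug or sham operation. Each of the 10 tissue and day groups had 3 single-colour arrays, described in the methods as biological replicates. Whether an array held RNA of 1 rat or of several is not given in the sources used here. These were bulk tissues, so more cells of a type and more RNA per cell cannot be told apart.

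Values are normalized signals: the log2 of an array's processed spot signal minus that array's 75th percentile, so that 0 marks the 75th percentile of brightness and 1 unit is a doubling. They compare 1 probe between samples, not 1 gene with another. The tissue labels fitted the markers: the summed level of 7 sensory neuron genes lay between 9.51 and 9.89 in DRG and between 2.04 and 3.66 in SN. Skeletal muscle transcripts were present as well, and their summed level ranged from 6.22 to 9.98 in SN at 0 d and from 2.64 to 4.22 at 4 d. The probes well above background numbered 26914 to 35541 an array, and DRG 0 d replicates 2 and 3 had the fewest. The arrays lay on 8 slides, and the 0 d arrays were on 2 slides and a scan day of their own. A change against 0 d and the slide or scan day therefore cannot be told apart, whereas tissues could be compared within a slide on every day. Over all tested probes, the median change against 0 d was 0.11 to 0.16 in SN and 0.08 to 0.14 in DRG (log2).

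On the array's annotation (rat build rn4), 6 of the 9 genes lay on chromosome 14. The probes of Cxcl11 (chr14:17252192-17252251), Cxcl10 (chr14:17267994-17268053) and Cxcl9 (chr14:17288831-17288890) were neighbours on the plus strand. Those of Cxcl2 (chr14:18677236-18677295) and Cxcl1 (chr14:18690468-18690527) formed a second pair on the minus strand, and Cxcl13 lay apart (chr14:15126534-15126593). The probes of Cxcl12 were on chromosome 4, those of Cxcr4 on chromosome 13 and that of Cxcr3 on chromosome X.

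The sequence upstream of 4 ligands is shown, as the members that held a motif of the pathways known to induce these genes. The motifs were searched on both strands in the 250 bases before the RefSeq start of each gene (build GRCr8). The NF-kB-type motif, GGG and TTCC with any 3 bases between them, was found in 4.53% of 33469 promoters and before 4 of the 9 members. The interferon-response type, GAAA repeated after any 2 bases, was found in 3.41% of promoters and before 1 member, and the interferon-gamma type, TTC and GAA with any 3 bases between them, in 7.67% and before 1 member. The letters in capitals are matches, read 5′ to 3′ on the strand of the gene, and matches on opposite strands overlap. The first capitals of Cxcl10 are the interferon-response type, the first of Cxcl11 the interferon-gamma type, and all others the NF-kB type.
Cxcl1 (chr14:17479385-17479433, minus strand, bases -112 to -64 from the start): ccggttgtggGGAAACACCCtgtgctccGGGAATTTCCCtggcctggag
Cxcl2 (chr14:17467290-17467339, minus strand, bases -84 to -35): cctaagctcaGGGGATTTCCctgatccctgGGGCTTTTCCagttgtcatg
Cxcl10 (chr14:15988816-15988958, plus strand, bases -250 to -108): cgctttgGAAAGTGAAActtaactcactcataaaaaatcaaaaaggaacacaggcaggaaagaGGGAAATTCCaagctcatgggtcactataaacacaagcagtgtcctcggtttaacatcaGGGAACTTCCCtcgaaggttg
Cxcl11 (chr14:15973478-15973673, plus strand, bases -250 to -55): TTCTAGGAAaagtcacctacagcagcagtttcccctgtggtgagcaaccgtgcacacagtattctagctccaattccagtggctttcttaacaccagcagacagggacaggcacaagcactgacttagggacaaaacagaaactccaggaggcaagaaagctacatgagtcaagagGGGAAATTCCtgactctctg
The promoter of Cxcl9 held none of these letters in that window, and neither did those of Cxcl12, Cxcl13, Cxcr3 and Cxcr4. A match is a string of letters and was not tested as a binding site.

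In the proximal nerve the members rose on different days. Cxcl1, Cxcl2 and Cxcr4 rose at 1 d. Cxcl2, Cxcl10, Cxcl11, Cxcr3 and Cxcr4 rose at 4 d, joined at 7 d by Cxcl9 and Cxcl13, and at 14 d Cxcl9, Cxcl11, Cxcl13, Cxcr3 and Cxcr4 were still up. A gene is said to rise or fall where limma gave a Benjamini-Hochberg adjusted p under 0.05 over all tested probes together with a change above 2-fold. By this rule 3, 5, 7 and 5 of the 9 genes rose in SN at 1, 4, 7 and 14 d, beside 18.6%, 15.9%, 18.1% and 14.3% of all 35157 probes tested. None fell, beside 3.43%, 6.78%, 6.81% and 5.46% of probes. The median change of the 9 genes was 0.76, 1.59, 1.75 and 1.36 (log2). All 4 days were set against the same 3 arrays at 0 d. The background depended on the scaling: in SN at 1 d 6553 probes rose and 1206 fell, but 4275 rose and 2521 fell after quantile normalization, which moved the median change of all probes from 0.11 to -0.08, with 2 members called in place of 3.

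In the ganglia Cxcl1, Cxcl2, Cxcl9, Cxcl11, Cxcl13 and Cxcr3 rose, none of them before 4 d, and Cxcl10, Cxcl12 and Cxcr4 did not. No member passed at 1 d, 3 did at 4 d (Cxcl2, Cxcl13 and Cxcr3), 5 at 7 d (Cxcl1, Cxcl9, Cxcl11, Cxcl13 and Cxcr3) and 6 at 14 d (these and Cxcl2). Among the 34968 probes tested in DRG, 7.44%, 6.04%, 6.58% and 13.0% rose at 1, 4, 7 and 14 d. None of the 9 genes fell by more than 2-fold, beside 0.169%, 0.506%, 0.326% and 0.460% of probes. At 1 d, 3 members had an unadjusted p under 0.05 in limma and 0 in the methods' t-test. The counts over all probes moved with the processing: at 14 d 4553 rose and 161 fell, against 2453 and 909 after quantile normalization, at 1 d 2600 rose, against 310 with normexp, and at 4 d 177 fell, against 2392 with no filter on dim probes. The median changes of the 9 genes were 0.30, 0.62, 1.34 and 1.81 (log2).

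**Figure D1:**
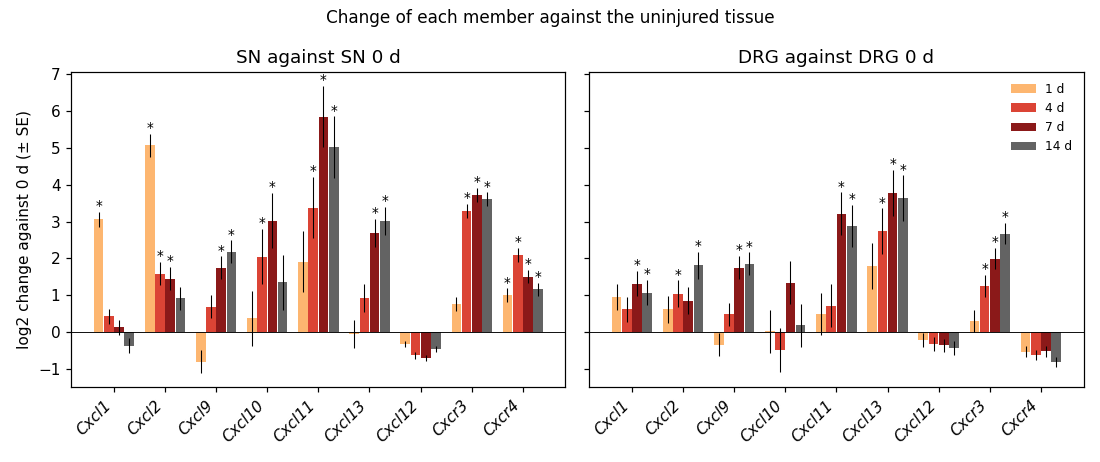
Change of each gene against 0 d of its own tissue, as log2 (bars) with its standard error from limma (lines), n = 3 arrays a group; 1, 4, 7 and 14 d are shown in SN (left) and DRG (right), and an asterisk marks a change past both thresholds. In SN Cxcl2 reached 5.07 at 1 d and Cxcl11 5.85 at 7 d, and in DRG Cxcl13 reached 3.78 at 7 d.

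Among the days sampled, Cxcl1 and Cxcl2, the ligands that attract neutrophils, were highest in the nerve at 1 d. Earlier hours, at which the paper reports both as upregulated, were not among these samples, so the time of the maximum is not known. Cxcl2 stood at -5.08, -5.64 and -5.04 on the SN arrays at 0 d and at 0.33, -0.56 and -0.30 at 1 d. Every 1 d array was thus far above every control. The rise was 33.6-fold (log2 5.07, SE 0.31, adjusted p = 2.38e-07), and it was the largest of any member at that day in SN. Cxcl2 then dropped to -4.18, -3.79 and -3.03 at 4 d, still above all 3 controls (3.0-fold, adjusted p = 8.23e-04), and to between -4.14 and -3.56 at 7 d (2.74-fold, adjusted p = 0.00153). At 14 d it lay between -4.60 and -4.00, and the change of 0.92 (SE 0.31, adjusted p = 0.0243) was under 2-fold. With normexp background correction the changes at 4 and 7 d were 0.74 and 0.55 and did not pass, and the 7 d change did not pass after quantile normalization (0.93) or in the authors' values (0.94) either.

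Cxcl1 read -1.71, -1.69 and -1.54 in SN at 0 d and 1.5, 1.43 and 1.30 at 1 d, an 8.33-fold rise (log2 3.06, SE 0.20, adjusted p = 3.47e-07). By 4 d it was back at -0.72, -1.52 and -1.42, and the remaining difference of 0.43 did not pass (adjusted p = 0.0791). At 14 d all 3 arrays, between -2.18 and -1.84, lay below the controls, with a difference of -0.37 that did not pass either (adjusted p = 0.132). The pulse of Cxcl1 was therefore seen on 1 of the 4 days sampled.

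In DRG neither ligand passed at 1 d. The changes of Cxcl1 at 1 and 4 d were 0.952 (adjusted p = 0.0761) and 0.616 (adjusted p = 0.187) in limma. No pair of days among 1, 4, 7 and 14 d differed for Cxcl1 in DRG, so its levels could not be ordered. Cxcl2 was higher at 14 d than at 1 d (1.193, adjusted p = 0.0338). Cxcl1 read -3.90, -4.23 and -2.93 (0 d), -2.21, -2.17 and -2.72 (7 d) and -2.04, -2.54 and -3.26 (14 d). All 7 d arrays exceeded the controls (2.49-fold, log2 1.32, SE 0.35, adjusted p = 0.0168), whereas at 14 d the groups overlapped (2.10-fold, adjusted p = 0.028). These calls depended on single arrays and on the processing. The 7 d change did not pass without DRG 0 d replicate 2 (1.05), DRG 7 d replicate 1 (1.24) or DRG 7 d replicate 2 (1.22). The 14 d change did not pass without DRG 0 d replicates 1 (0.96) or 2 (0.80) or DRG 14 d replicates 1 (0.78) or 2 (1.03), nor after quantile normalization (0.75), in the authors' values (0.76), with only the compared groups fitted or in the methods' t-test. Cxcl2 was -6.17, -6.56 and -5.15 at 0 d, with the second array not well above background, and -4.11, -4.18 and -4.16 at 14 d, a 3.52-fold rise (log2 1.81, SE 0.36, adjusted p = 0.00228). With normexp that rise was 1.29 and did not pass. Its 4 d call (1.04, SE 0.36, adjusted p = 0.0462) sat at both thresholds and was lost in 22 of the 28 alternatives, with values from 0.49 to 1.25. Among them were leaving out DRG 0 d replicate 1 (0.94) or 2 (0.74), or DRG 4 d replicate 1 (0.92).

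**Figure D2:**
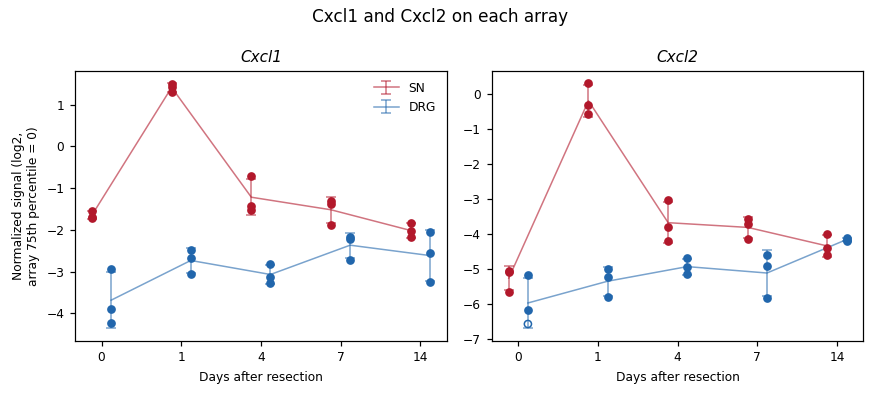
Normalized signal (log2, the array's 75th percentile is 0) of Cxcl1 and Cxcl2 on each array (points) by days after resection, in SN (red) and DRG (blue); lines join group means, bars are ± SD (n = 3), and open points are not well above background. In SN both rose at 1 d, Cxcl2 from between -5.64 and -5.04 to between -0.56 and 0.33.

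Transcripts of neutrophils moved with the 1 d pulse. In SN 5 of 6 neutrophil markers rose at 1 d, beside 18.6% of all probes, S100a8 by 5.26 and S100a9 by 4.51 (log2). The summed level of the list went from between -1.56 and -0.74 at 0 d to between 2.91 and 3.87. Elane and Mmp8 were not well above background on any SN array at 0 d. The summed level was lower at 4 and 7 d, between -0.36 and 0.13, but still above that at 0 d. On both days 3 of the 6 markers were up, among them Csf3r, a receptor of the neutrophil growth factor, by 3.48 and 2.93. Mpo, of the same list, fell past both thresholds at 4 d. In DRG the summed level was between 0.86 and 2.47 at 0 d and between 1.34 and 1.77 at 1 d. Csf3r was the only marker of the list that rose there at 1, 4 and 7 d. At 14 d S100a8 and Csf3r rose, and the summed level, between 2.24 and 3.10, still overlapped with that at 0 d. The part of these cells in the signal of Cxcl1 and Cxcl2 was not tested.

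Cxcl9, Cxcl10 and Cxcl11, the ligands of Cxcr3, rose in the nerve on different days: Cxcl10 at 4 and 7 d, Cxcl11 at 4, 7 and 14 d and Cxcl9 at 7 and 14 d. Cxcl11 read -6.61, -6.33 and -4.36 in SN at 0 d, where only the third array was well above background. It was -3.59, -3.15 and -0.41 (4 d), -0.36, 0.88 and -0.28 (7 d) and -0.64, -1.60 and 0.02 (14 d). All arrays from 1 d on except 1 d replicate 3 (-4.76) exceeded the highest control. Against the mean of the 3 controls the rise was 10.4-fold at 4 d (log2 3.38, SE 0.83, adjusted p = 0.00377), 57.6-fold at 7 d (5.85, adjusted p = 7.26e-05) and 32.6-fold at 14 d (5.03, adjusted p = 3.02e-04). These sizes depended on how dim controls were treated: with normexp, which compresses low signals, they were 1.68, 3.65 and 3.20, and the first did not pass.

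Cxcl10 was uneven between arrays of a group, as Cxcl11 was (SE 0.75 and 0.83). Its SN values were 0.78, 0.03 and 3.14 (0 d), 2.78, 2.80 and 4.50 (4 d), 4.15, 5.08 and 3.78 (7 d) and 2.62, 2.04 and 3.36 (14 d). One control, replicate 3, was above 2 of the 4 d arrays. At 7 d every array exceeded every control (8.12-fold, log2 3.02, SE 0.75, adjusted p = 0.00387). The 4 d rise (4.13-fold, log2 2.05, adjusted p = 0.0316) did not pass without SN 0 d replicate 1 (1.78), SN 0 d replicate 2 (1.40) or SN 4 d replicate 3 (1.47), nor in the methods' t-test. At 14 d the change of 1.36 did not pass (adjusted p = 0.14).

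Cxcl9 was the steadiest of these ligands. In SN it read -0.84, -0.84 and -0.29 at 0 d, then -1.22, -1.77 and -1.40 at 1 d, below every control (-0.80, SE 0.30, adjusted p = 0.0364, under 2-fold). It climbed to between -0.24 and 0.45 at 4 d, to 0.69, 1.72 and 0.86 at 7 d and to 1.57, 1.07 and 1.93 at 14 d. The rise was 3.37-fold at 7 d (log2 1.75, SE 0.30, adjusted p = 3.40e-04) and 4.54-fold at 14 d (2.18, adjusted p = 8.43e-05).

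In the ganglia Cxcl9 and Cxcl11 rose at 7 and 14 d and Cxcl10 did not. Cxcl9 went from -2.93, -2.47 and -1.72 at 0 d to -0.72, -0.54 and -0.60 at 7 d and -0.44, -0.98 and -0.15 at 14 d, without overlap (3.37-fold, adjusted p = 0.0018, and 3.62-fold, adjusted p = 7.51e-04). Cxcl11 was not well above background on any DRG array at 0 d (-6.92, -6.00 and -5.32). It reached -2.85, -2.09 and -3.64 at 7 d, at least 7.49-fold higher (adjusted p = 0.00203), and -3.01, -4.20 and -2.37 at 14 d, at least 5.95-fold higher (adjusted p = 0.00228). This bound sets the mean of the bright group against the dimmest signal that counted as well above background, or the probe's own signal where that was higher. With normexp the 7 d change of Cxcl11 did not pass. Cxcl10 overlapped with its controls (-0.11, 0.75 and 2.04) on every day in DRG, and its largest difference, 1.34 at 7 d (SE 0.59, adjusted p = 0.118), did not pass.

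Cxcr3, the receptor shared by these ligands, had a smaller standard error in SN than any of them. There it stood at -5.22, -5.14 and -5.02 at 0 d and at -4.18, -4.38 and -4.55 at 1 d, a separation of 0.76 under 2-fold (SE 0.18, adjusted p = 0.00329). At 4 d it was -1.97, -1.74 and -1.79, at 7 d -1.47, -1.20 and -1.53 and at 14 d -1.19, -2.01 and -1.35. No pair of days among 4, 7 and 14 d differed for Cxcr3 in SN, so its level could not be ordered after 4 d. The rises were 9.81-fold (log2 3.29, SE 0.18, adjusted p = 6.16e-08), 13.2-fold (3.73, adjusted p = 3.03e-08) and 12.2-fold (3.61, adjusted p = 6.57e-08). With normexp they were 1.97, 2.38 and 2.55 (log2) and passed.

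In DRG no array at 0 d had Cxcr3 well above background (-7.61, -7.04 and -6.31), and 2 of 3 did at 1 d. It then read -5.34, -5.91 and -5.94 (4 d), -4.85, -5.21 and -4.91 (7 d) and -4.55, -4.45 and -3.93 (14 d), each group above the one before. Cxcr3 was at least 1.07-fold higher at 4 d (adjusted p = 0.00814), at least 1.80-fold at 7 d (adjusted p = 5.31e-04) and at least 2.87-fold at 14 d (adjusted p = 5.07e-05). With normexp the differences were 0.77, 0.54 and 1.44, and none passed. The 4 d call was also lost without DRG 0 d replicate 1 (0.95).

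**Figure D3:**
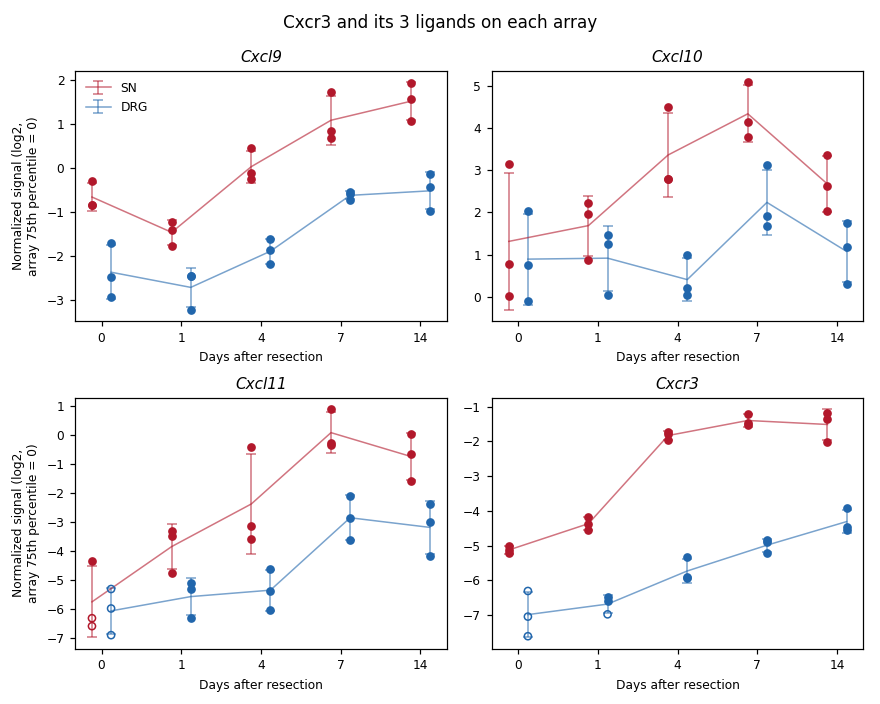
Normalized signal (log2, the array's 75th percentile is 0) of Cxcl9, Cxcl10, Cxcl11 and Cxcr3 on each array (points) by days after resection, in SN (red) and DRG (blue); lines join group means, bars are ± SD (n = 3), and open points are not well above background. Cxcr3 in SN moved from between -5.22 and -5.02 to between -1.97 and -1.74 at 4 d, and the third SN control was high in Cxcl10 at 3.14.

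Markers of the cells that carry Cxcr3 changed in the same samples. At 1, 4, 7 and 14 d 18.6%, 15.9%, 18.1% and 14.3% of all probes rose in SN. There 5, 7, 7 and 7 of 7 T cell markers rose and 1, 3, 3 and 3 of 3 NK cell markers. Of the latter, the summed level in SN went from between -2.91 and -2.74 at 0 d to between -0.49 and 1.22 from 4 d on. Cd8a, the co-receptor of cytotoxic T cells, rose by 6.17, 6.66, 6.23 and 4.78. At 1 d its rise was the largest of the T cell list and was not shared by all of it. Cd2, Cd3d, Cd3e and Lck rose by less on that day, and Cd3g and Cd4 did not pass. The summed T cell level lay between 0.38 and 0.65 at 0 d and between 2.41 and 3.31 from 4 d on. In DRG 0, 1, 4 and 4 T cell markers rose, beside 7.44%, 6.04%, 6.58% and 13.0% of all probes. The summed T cell level there was between 0.04 and 0.68 at 0 d and between 0.17 and 1.11 afterwards. Cd3e, which encodes a chain of the T cell receptor complex, was not well above background on any 0 d array of either tissue. Cd3d and Cd3g of the same list, by contrast, were so on all 3 in both tissues. Of the NK genes in DRG, 2, 2, 3 and 3 of 3 rose. They did not all move together: at 1 d Gzmb, a granzyme of cytotoxic cells, rose by 4.95 (adjusted p = 1.52e-05), from 2 of 3 controls well above background, while Prf1 differed by -0.01 (adjusted p = 0.989). The part of these cells in the signal of Cxcr3 was not tested.

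Cxcl13, known as the attractant of B cells, rose in both tissues. In DRG it read -2.33, -0.02 and 1.09 (0 d), a wide spread, then 1.1, 1.22 and 1.80 (1 d), 2.36, 2.11 and 2.50 (4 d), 3.21, 3.79 and 3.08 (7 d) and 3.41, 2.82 and 3.42 (14 d). Every array after 0 d was above all 3 controls. At 1 d the change of 1.79 (SE 0.62, adjusted p = 0.0639) did not pass. The later rises were 6.69-fold (log2 2.74, adjusted p = 0.00683), 13.7-fold (3.78, adjusted p = 0.00109) and 12.4-fold (3.64, adjusted p = 8.50e-04). Their size rested on the controls: without DRG 0 d replicate 1 they were 1.79, 2.83 and 2.68 and still passed.

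In SN Cxcl13 stood at 0.27, 0.36 and 1.59 at 0 d and 0.84, 0.87 and 0.36 at 1 d, with no separation. It was 1.79, 1.08 and 2.12 at 4 d (0.92, adjusted p = 0.0556), 3.50, 3.75 and 3.05 at 7 d (6.47-fold, log2 2.69, SE 0.39, adjusted p = 7.71e-05) and 4.15, 3.15 and 3.99 at 14 d (8.13-fold, 3.02, adjusted p = 4.34e-05). Ms4a1, a marker of B cells, lacked signal well above background at 0 d in both tissues, and in DRG, where it was tested, it passed on no day.

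Cxcl12, the ligand made at rest, was bright in both tissues and was the member that did not rise on any day. Probe 1 read 4.36, 4.26 and 4.13 in SN at 0 d, between 3.86 and 3.99 at 1 d, between 3.55 and 3.71 at 4 d, between 3.49 and 3.58 at 7 d and between 3.67 and 3.90 at 14 d. Every later array was below every control. The differences of -0.33, -0.64, -0.70 and -0.47 (SE 0.08) had adjusted p of 0.00492, 3.98e-05, 1.80e-05 and 5.55e-04 and stayed under 2-fold, at most 1.63-fold. Probe 2, which the annotation pairs with another transcript of the gene, gave 0.02, -0.34, -0.42 and 0.06, of which only 7 d had an adjusted p under 0.05 (0.033). In DRG probe 1 was 3.03, 2.09 and 2.21 at 0 d and between 1.91 and 2.29 afterwards, and no difference passed (adjusted p from 0.0812 to 0.455).

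Cxcr4, its receptor, rose in the nerve and was lower after resection in the ganglia. In SN probe 1 stood at -1.81, -1.34 and -1.59 at 0 d, at -0.20, -0.92 and -0.62 at 1 d, at 0.73, 0.43 and 0.39 at 4 d, at about 0 at 7 d (-0.07, -0.16 and 0.00) and at -0.13, -0.55 and -0.58 at 14 d. All 12 arrays after resection exceeded the 3 controls, with the highest mean at 4 d (4.27-fold, log2 2.09, SE 0.19, adjusted p = 1.65e-06). At 7 and 14 d the rise was 2.84-fold (adjusted p = 2.28e-05) and 2.23-fold (adjusted p = 2.32e-04). The 1 d change, 2.0-fold (adjusted p = 5.58e-04), lay on the fold threshold and fell under it without SN 0 d replicate 1 (0.89) or 3 (1.00), or without SN 1 d replicate 1 (0.81). Probe 2, in the same transcript, gave 1.01, 2.31, 1.84 and 1.31.

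In DRG Cxcr4 was -0.27, -0.68 and -0.25 (0 d), -0.64, -1.06 and -1.09 (1 d), -0.84, -1.08 and -1.14 (4 d), -0.88, -1.01 and -0.87 (7 d) and -1.24, -1.29 and -1.1 (14 d). From 4 d on every array was below every control. The differences were -0.53 (adjusted p = 0.024), -0.62 (0.0081), -0.52 (0.0219) and -0.81 (0.00116), with SE 0.15, all under 2-fold. Probe 2 gave -0.46, -0.59, -0.45 and -0.88.

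**Figure D4:**
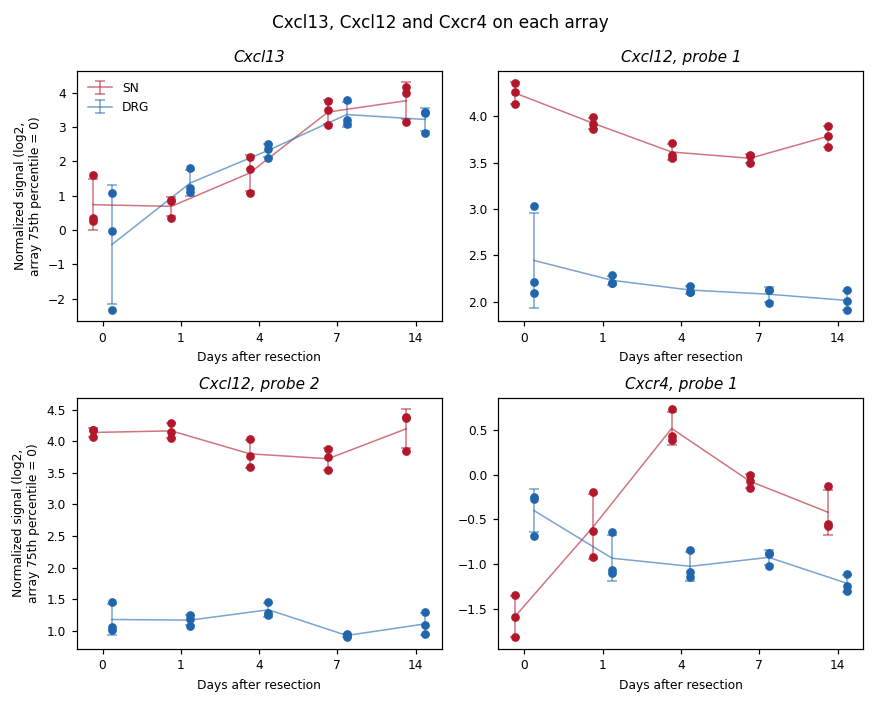
Normalized signal (log2, the array's 75th percentile is 0) of Cxcl13, both Cxcl12 probes and Cxcr4 on each array (points) by days after resection, in SN (red) and DRG (blue); lines join group means, bars are ± SD (n = 3). Cxcl13 rose in both tissues to between 2.82 and 4.15 at 14 d, Cxcl12 probe 1 in SN stayed between 3.49 and 4.36, and Cxcr4 crossed over, from lower in SN at 0 d to higher from 4 d on.

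Before injury, 5 members differed between the tissues by more than 2-fold with adjusted p under 0.05, beside 35.4% of the 33796 probes tested in both. Cxcl12 was 3.50-fold higher in SN (log2 1.81, adjusted p = 1.11e-10) and 7.79-fold by probe 2, Cxcl1 was 4.11-fold higher (adjusted p = 1.44e-06) and Cxcl9 3.28-fold (adjusted p = 4.47e-05). Cxcr3 was higher in SN as well (adjusted p = 6.55e-07), against ganglia without signal well above background, and with normexp this did not pass. Cxcr4 was 2.27-fold higher in DRG (adjusted p = 1.47e-06). On the slide that held all 3 SN controls and DRG 0 d replicate 1, the differences SN minus DRG ran the same way, at 1.22 for Cxcl12, 2.26 for Cxcl1, 2.27 for Cxcl9 and -1.31 for Cxcr4. Cxcl13 (1.16, adjusted p = 0.0591), Cxcl2 (0.71, adjusted p = 0.0766), Cxcl10 and Cxcl11 did not pass.

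Whether a member changed by a different amount in the nerve than in the ganglia was tested in 1 fit of all 30 arrays, as the SN change minus the DRG change. At adjusted p under 0.05, 3, 4, 3 and 3 of the 9 genes differed at 1, 4, 7 and 14 d, beside 35.6%, 45.3%, 38.1% and 32.3% of probes. At 1 d the differences were 4.45 for Cxcl2 (log2, SE 0.50, adjusted p = 6.60e-07), 2.11 for Cxcl1 (adjusted p = 4.22e-04) and 1.53 for Cxcr4 (adjusted p = 4.00e-05). Cxcr4 differed on every day, by 2.71 (adjusted p = 8.78e-09), 2.03 (adjusted p = 5.98e-07) and 1.97 (adjusted p = 1.28e-06) at 4, 7 and 14 d. Within slides, with 1 array of 1 tissue and 3 of the other, its differences were 1.37, 2.72, 2.11 and 1.94. For Cxcl1 and Cxcl2 at 1 d they were 1.63 and 4.12, and with the slide as a fixed block the former did not pass.

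Cxcr3 gained more in SN by 2.04 at 4 d (adjusted p = 7.78e-05) and 1.73 at 7 d (adjusted p = 5.25e-04). With the slide as a fixed block, chosen after seeing the data, the 7 d value was 0.97 and did not pass. At 14 d the difference was 0.94 (adjusted p = 0.0489), which was lost in 33 of 42 alternatives, with values from 0.31 to 1.11, among them leaving out DRG 0 d replicate 3 (0.59). Cxcr3 and Cxcl11 were not well above background in DRG at 0 d, so their DRG changes, and these differences, rest on dim controls. Cxcl10 (2.53, adjusted p = 0.0413) and Cxcl11 (2.67, adjusted p = 0.0432) gained more in SN at 4 d. Both calls were lost without DRG 0 d replicates 2 or 3, SN 0 d replicates 1 or 2, DRG 4 d replicates 1 or 2, or SN 4 d replicate 3, with values of 1.89 to 2.60 and 1.68 to 2.65, and the values within slides were 2.67 and 3.80. Cxcl1 turned around: its change was smaller in SN than in DRG at 7 d (-1.19, adjusted p = 0.0261) and at 14 d (-1.44, adjusted p = 0.00989). The 7 d call did not pass without DRG 0 d replicates 1 (-1.08) or 2 (-0.92), DRG 7 d replicates 1 (-1.11) or 2 (-1.09), SN 0 d replicate 3 (-1.14) or SN 7 d replicate 1 (-1.01), and neither day passed with the slide as a fixed block (-1.56 and -1.48). Cxcl13 gained less in SN at 1 d (-1.84, SE 0.76, adjusted p = 0.0634) and 4 d (-1.82, adjusted p = 0.0549), and neither passed.

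**Figure D5:**
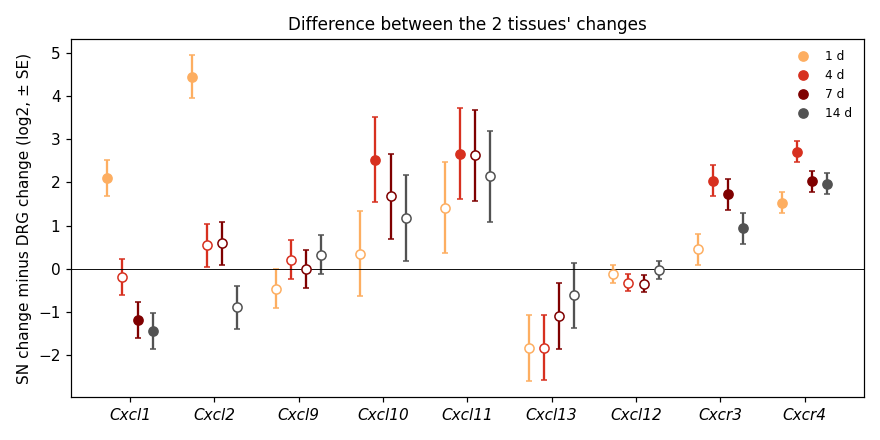
Difference between the SN change and the DRG change against 0 d for each gene (log2, points) with its standard error (bars), by day (colours), from the fit of all 30 arrays; filled points have adjusted p under 0.05. Above 0 the gene gained more in the nerve, as Cxcl2 did by 4.45 at 1 d and Cxcr4 on all 4 days, and below 0 it gained more in the ganglia, as Cxcl1 did at 7 and 14 d.

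The order of the days was read from pairs of later days, called at adjusted p under 0.05 alone. Within each tissue the later days also lay on different slides, and in part had different scan days. A difference between later days and the slide therefore cannot be told apart. In SN 6 of the 9 genes differed between 1 and 4 d (37.9% of probes). Cxcl1 (-2.63), Cxcl2 (-3.49) and Cxcl12 (-0.31) were lower at 4 d and Cxcl9 (1.5), Cxcr3 (2.54) and Cxcr4 (1.09) higher. Between 4 and 7 d 3 genes differed (17.1% of probes): Cxcl13 (1.77) and Cxcl9 (1.06) went up and Cxcr4 (-0.59) down. Between 7 and 14 d no gene differed in limma (11.6% of probes), with 3 at an unadjusted p under 0.05. The levels at 7 and 14 d could therefore not be ordered. Set farther apart, 9 genes differed between 1 and 7 d (48.5% of probes), 6 between 1 and 14 d (49.9%) and 4 between 4 and 14 d (28.7%). The last were Cxcl9 (1.49) and Cxcl13 (2.10), higher at 14 d, and Cxcl1 (-0.80) and Cxcr4 (-0.93), lower.

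In DRG neighbouring days were seldom told apart. Between 1 and 4 d Cxcr3 differed (0.95, adjusted p = 0.0395, 20.0% of probes). No member did between 4 and 7 d (0.646% of probes), 7 and 14 d (0.535%) or 4 and 14 d (0.718%) in limma, with 4, 2 and 3 at an unadjusted p under 0.05. Against 1 d, Cxcl9 (2.10), Cxcl11 (2.73) and Cxcr3 (1.70) were higher at 7 d (13.4% of probes). At 14 d these and Cxcl2 (1.19) and Cxcl13 (1.85) were, at 2.20 for Cxcl9, 2.39 for Cxcl11 and 2.37 for Cxcr3 (22.8% of probes).

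The arrays of a group also differed together in several members. Replicate 3 was the highest of the 3 controls at 0 d in both tissues for Cxcl1, Cxcl2, Cxcl9, Cxcl10, Cxcl11, Cxcl13 and Cxcr3. Over the 15 pairs of an SN and a DRG array with the same day and number, the deviations from the group mean correlated across tissues at r = 0.85 for Cxcl10, 0.72 for Cxcl9, 0.69 for Cxcl11 and 0.61 for Cxcl13. They did so at 0.10 for Cxcl1, 0.24 for Cxcl2, 0.28 for Cxcr4 and -0.05 for Cxcr3, and at 0.52 for Cxcl12. The same number was highest in both tissues on 4 of 5 days for Cxcl1, Cxcl9, Cxcl10 and Cxcl11. Correlated over all tested probes instead, the deviations of the 2 arrays of a pair had a median r of 0.03, and the labels do not say whether arrays of 1 number share a rat.

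Other members of the family and its surroundings were taken from fixed lists. The counts of these lists, here and below, stand beside the shares of all tested probes at 1, 4, 7 and 14 d. In SN 18.6%, 15.9%, 18.1% and 14.3% rose and 3.43%, 6.78%, 6.81% and 5.46% fell. In DRG 7.44%, 6.04%, 6.58% and 13.0% rose. Of 13 other CXC ligands and receptors, 11 had a probe and 10 were tested in SN, where 8, 8, 6 and 4 rose and 0, 0, 1 and 1 fell at 1, 4, 7 and 14 d. The median change of the list was 1.76, 1.64, 1.26 and 0.89 (log2). Cxcl3, a further ligand of Cxcr2, followed Cxcl2 in SN: its rise was 5.03 at 1 d (SE 0.28, adjusted p = 1.24e-07) and 1.54 at 4 d. Cxcr2 itself, well above background on 1 of 3 controls, rose by 3.45 at 1 d (adjusted p = 4.29e-06). Cxcl14 rose by 4.87 at 1 d (adjusted p = 6.36e-10) and was still up by 2.60 at 14 d. Cxcr6, the receptor of Cxcl16, rose by 2.26, 3.01 and 3.61 at 4, 7 and 14 d. Cxcr7, a second receptor of Cxcl12 that acts as a scavenger, fell by 1.16 at 7 d (adjusted p = 1.87e-05) and 1.07 at 14 d. In DRG 2, 1, 3 and 4 of the 9 tested rose, among them Cxcr6, which had not been well above background on any control and passed at 4, 7 and 14 d (adjusted p = 3.95e-06 at 14 d).

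Of the genes around interferon-gamma, Irf7, an interferon-induced transcription factor, fell in SN by 1.20 at 1 d (adjusted p = 0.0435) and rose by 1.21 at 7 d. Ifng, which encodes interferon-gamma, was not well above background on any SN array at 0 d and was so on all 3 at 4, 7 and 14 d (adjusted p = 2.25e-05 at 7 d). Irf1, a target of that cytokine, rose in SN by 1.09, 1.56 and 1.21 from 4 d on. In DRG Irf7 rose by 1.30 at 7 d (adjusted p = 0.033). Of 8 NF-kB axis genes, 2, 1, 2 and 1 rose in SN, beside 18.6%, 15.9%, 18.1% and 14.3% of all probes. In DRG 0, 1, 1 and 2 rose, beside 7.44%, 6.04%, 6.58% and 13.0%. The genes that rose were Il1b and Tnf, cytokines that activate this pathway. Il1b rose in SN by 2.52, 1.48, 1.90 and 1.61, and in DRG by 1.18, 2.11 and 1.5 from 4 d on. The list's medians in SN were 0.36, 0.50, 0.48 and 0.48.

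Among 7 genes whose products trim or bind chemokines, 2, 2, 3 and 4 rose in SN and 1, 1, 1 and 0 fell. Mmp12, a macrophage protease, was not well above background on any SN array at 0 d and rose (adjusted p = 1.98e-07 at 14 d). Dpp4, the peptidase that inactivates Cxcl9 to Cxcl12, fell by 1.25 at 1 d (adjusted p = 3.76e-06). Mmp9, a gelatinase, rose by 4.90, 4.73, 5.13 and 3.03, from 1 of 3 controls well above background. In DRG 1, 2, 2 and 2 rose and 0 fell, with Mmp12 up by 2.54, 3.58, 3.61 and 3.31, from 1 of 3 controls well above background, and Cd74, the invariant chain, up by 1.42, 2.92 and 3.07 from 4 d on. Of 9 genes of G protein and arrestin signalling, 4, 3, 3 and 3 rose in SN. Arrb2, which desensitises these receptors, rose by 1.38, 1.96, 1.83 and 1.46, and Rac2, a GTPase of white blood cells, by 1.15, 2.01, 1.93 and 1.5. In DRG 0, 1, 2 and 2 rose. Macrophage markers rose alongside, 5, 6, 5 and 4 of 6 in SN and 0, 2, 4 and 2 in DRG, with summed levels from between 4.40 and 4.56 to between 6.54 and 6.89 in SN at 4 d and from between 2.70 and 3.41 to between 4.33 and 4.51 in DRG at 7 d. Their part in these counts was not tested.

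For all members but Cxcl10, the gene with the most similar profile over the 30 arrays was sought among 17002 named probes (17001 for Cxcl12 and Cxcr4), by Pearson r and as a description, since tissue and day are shared by all of them. Cxcr3 lay closest to Prf1, the perforin of cytotoxic lymphocytes (r = 0.99). Cxcl9 lay closest to RT1-A2, a class I histocompatibility gene (0.95) and Cxcl11 to Fcgr3a, an Fc receptor of NK cells and macrophages (0.93). The nearest to Cxcl1 was Pak1ip1 (0.91) and to Cxcl2 was Rrp9 (0.93), which acts in ribosome assembly. Cxcl12 paired with the membrane peptidase Mme (0.98), Cxcl13 with Slurp1 (0.85) and Cxcr4 with the potassium channel Kcnn4 (0.89).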

How the data were processed

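RNA of sciatic nerve and dorsal root ganglia was hybridised to single-colour Agilent rat arrays. Per the file headers, spot intensity values were read with Agilent Feature Extraction 10.5.1.1 and annotated on rn4, and the processed signal deposited had the background subtracted within each array, with no scaling between arrays. The deposited marks of 0 or 1 per spot (well above background, saturated, outlier) were also used. The authors also deposited log2 values of the same 30 arrays, whose columns hold the same sorted values and so had been quantile-normalized, and these served as an alternative. Labels and methods name different RNA extraction kits.

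Outlier spots were left out (58 to 148 an array), spots of a probe were averaged, and the 75th percentile of each array was subtracted from log2 of the processed signal. A probe was tested if every array of some day (3 of 3) had it well above background. Tests were made in limma 3.58.1 (R 4.3.3, statmod 1.5.0), with 15 arrays of a tissue in a fit and all 30 where tissues were compared. Calls needed a Benjamini-Hochberg adjusted p under 0.05 and, against 0 d and between tissues at 0 d, a change above 2-fold. The fits were tested on simulated data. A list's summed level is the log2 of the summed scaled signals of its probes. The number of arrays limits the precision, and p-values measure the spread between arrays, which may be partly technical.

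All members were named, whatever their values. Genes named from a list were called on at least 1 day and among the 6 with the largest change, though not all of these are named, and others were named only to state whether they were well above background. The members and lists were chosen with earlier results of these data known. Promoters came from RefSeq (GRCr8) and were matched by symbol for all 9 genes. Alternatives were another background correction, normalization, percentile or filter, the methods' t-test, slide or replicate number as a block, and leaving out each array. Figures were drawn with matplotlib 3.10.9. Some genes of the lists, and the gene nearest to Cxcl10, are not reported here.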

Additional observations from a re-analysis of the deposited data

Results flagged for a closer look

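For 6 of the 9 members the change against 0 d differed between nerve and ganglia in the test of the difference itself (limma, SN change minus DRG change, log2), on 1 or more days. At 1 d the difference was 2.11 for Cxcl1, 4.45 for Cxcl2 and 1.53 for Cxcr4. At 4 d it was 2.53 for Cxcl10, 2.67 for Cxcl11, 2.04 for Cxcr3 and 2.71 for Cxcr4. At 7 d it was -1.19 for Cxcl1, 1.73 for Cxcr3 and 2.03 for Cxcr4, and at 14 d -1.44 for Cxcl1, 0.94 for Cxcr3 and 1.97 for Cxcr4. By day 3, 4, 3 and 3 of the 9 members differed in this test, near the 35.6%, 45.3%, 38.1% and 32.3% of all probes that did. No share of all probes was taken over the days together, so the count of 6 has no background beside it. Cxcl11 and Cxcr3 were not well above background on any DRG array at 0 d, so their differences rest on dim controls, and the calls of Cxcl10 and Cxcl11 at 4 d and of Cxcr3 at 14 d were lost in 12 of 43, 11 of 42 and 33 of 42 alternatives. Cxcl1 gained more in SN at 1 d and less at 7 and 14 d, but with the slide as a fixed block it passed on none of these days.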

How the results depend on the processing

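No called value turned direction in any alternative. Of 2232 alternative values of uncalled results 75 turned sign and 76 gained a call, 4 of them in the opposite direction. Counts of members that moved by over 1.5 times were these, with the cause not tested. With normexp background correction, 2 rather than 5 members rose in SN at 4 d, 1 rather than 3 in DRG at 4 d and 3 rather than 5 in DRG at 7 d; the difference between tissues at 4 d held for 1 rather than 4; and the later-day pairs gave 0 for SN 7 d against 4 d, 0 for DRG 4 d, 1 for DRG 7 d and 1 for DRG 14 d against 1 d. Pathway genes called were then 8, 9 and 12 rather than 18, 17 and 19 in SN and 0, 2 and 4 rather than 3, 5 and 9 in DRG at 1, 4 and 7 d. Requiring both groups well above background left fewer genes to test: 1, 3 and 3 members in DRG at 4, 7 and 14 d, and 11, 10 and 12 pathway genes in SN at 1, 4 and 7 d and 0, 2, 5 and 4 in DRG at 1, 4, 7 and 14 d. Quantile normalization gave 1 member in DRG at 4 d and 1 for DRG 14 d against 4 d, and the authors' values gave 1 in DRG at 4 d. Fits limited to the groups compared gave other counts: DRG at 4 d gave 0 and the difference between tissues 2 at 4 d and 1 at 14 d. The methods' t-test gave 3 in SN and 1 in DRG at 4 d, and after Benjamini-Hochberg 3 in SN at 4 d and 0, 1 and 1 in DRG at 4, 7 and 14 d. Without a minimum fold, 6 passed in SN and 1 in DRG at 1 d.

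Leaving out each array in turn gave 1 to 3 members in DRG at 4 d (1 without DRG 0 d replicate 1), 0 to 2 in DRG at 1 d (2 without DRG 0 d replicate 3) and 2 to 5 for the difference between tissues at 4 d (2 without DRG 0 d or SN 0 d replicate 2 or DRG 4 d replicates 1 or 2). Of 1050 single called values refitted this way, 980 kept their call. Over all probes, arrays of 1 number did not deviate together in every pair, although they did for some members across tissues (r = 0.85 for Cxcl10): deviations of SN and DRG arrays of a day correlated at -0.19 to 0.25 (15 pairs, 4 over 0.1), and those of 0 d and later arrays of a tissue at -0.30 to 0.19 (24 pairs, 4 over 0.1). The replicate block gave 2 rather than 1 member for DRG 4 d against 1 d and 3 rather than 5 for DRG 14 d against 1 d. Chosen after seeing the data, a replicate block of day and number gave 5 rather than 3 for the difference between tissues at 7 d, and DRG 0 d replicate 1 alone as control gave 1 member in DRG at 1 d and 5 for the difference at 1 d.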
